A study of Arabidopsis thaliana with 11 samples.

Results

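Total gene expression was compared between endosperm that inherited a mutant nrpd1 allele from its father and wild-type endosperm of Arabidopsis thaliana. These were the 6 libraries of the second experiment in the series, out of 11 libraries in all, and their counts of all reads per feature were used whatever allele the reads carried. The 3 paternal nrpd1 libraries came from Ler mothers pollinated by nrpd1a-4 mutant fathers of the Col strain, and the 3 wild-type libraries from Ler mothers pollinated by Col fathers. Mothers were wild type for NRPD1 in both groups. Endosperm was dissected by hand 6 to 7 days after pollination, when the embryo is at the torpedo stage, and each library pooled seeds of crosses among several plants. RNA was amplified for 12 cycles with a SMARTer V4 kit and read as single reads of 40 bases. In the first experiment, used here only to set a homozygous effect beside the paternal one, 3 libraries from nrpd1a-4 mothers in Ler pollinated by nrpd1a-4 fathers in Col were compared with 2 libraries from wild-type Ler mothers and Col fathers. That endosperm was taken 6 days after pollination, and its libraries were made with another kit, 15 amplification cycles and reads of 100 bases.

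The product of NRPD1 is the catalytic core of RNA polymerase IV, a plant enzyme whose short transcripts are copied into double strands by RDR2, cut into small RNAs by DCL3 and loaded into Argonaute proteins such as AGO4. With transcripts of RNA polymerase V, these small RNAs guide the methyltransferase DRM2 to transposons and repeats, a pathway called RNA-directed DNA methylation. Endosperm is the seed tissue that nourishes the embryo, and it holds more maternal than paternal genomes. It carries imprinted genes, expressed mainly from one parent's allele, and the father's RNA polymerase IV pathway is known to act on the balance of maternal and paternal transcripts there.

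The libraries held 32676580 to 35629462 counts in paternal nrpd1 and 24845721 to 34911355 in wild type, over 37336 features, of which 18901 passed the filter on low counts and were tested. Levels below are CPM, counts scaled to the size of each library with TMM factors, and differences are log2 differences of paternal nrpd1 minus wild type with the standard error (SE) of the edgeR fit. The common coefficient of variation among replicates was 0.493. Groups and library likeness did not run together. Across the 18901 features, Spearman's rho was 0.966 between paternal replicate 2 and wild-type replicate 1, against 0.914 to 0.946 among the paternal replicates and 0.904 to 0.980 among the wild-type ones. The highest value was that of wild-type replicates 2 and 3, and the lowest within wild type that of replicates 1 and 2. Paternal replicate 2 and wild-type replicate 1 are left out together beside the results that rest on them.

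No gene was called in the main test. At an adjusted p under 0.05 in edgeR, 0 features were higher and 0 lower of 18901 (0% each). The smallest adjusted p was 0.410, for AT3G14670. At an unadjusted p under 0.05 edgeR gave 1496 features (7.91%), with 385 higher (2.04%) and 1111 lower (5.88%). With 1 library left out this number ranged between 443 (without wild-type replicate 2) and 4181 (without wild-type replicate 1). DESeq2 called 5 features higher (0.0265%) and 11 lower (0.0582%), and limma with voom and library quality weights called 1, AT3G14670, as higher (adjusted p = 0.0418). In 2520 features (13.3%) the log2 difference was beyond 1 in size, of which 809 were positive and 1711 negative. On simulated counts of 18390 genes DESeq2 called 43 unchanged genes and edgeR 7. That DESeq2 made more such calls is a limit on its calls described below. The simulation held genes with planted changes and no trend with transcript length. The 43 is therefore not an estimate of false calls in the real data. edgeR there recovered 11 of 48 genes changed 4-fold, so its 0 calls do not exclude changes of that size.

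NRPD1 (AT1G63020, chr1:23354685-23362589, minus strand, TAIR10.1) was itself low in these libraries. It measured 5.89, 1.79 and 4.17 CPM in paternal nrpd1 replicates 1 to 3 and 8.41, 10.4 and 10.4 CPM in wild type. Each paternal nrpd1 library lay below each wild-type one. The log2 difference was -1.30 (SE 0.46, edgeR adjusted p = 0.616, n = 3 each), and it shrank to -0.36 once transcript length was taken into account, as described further on. In the mutant cross the Col allele is the mutant one and the Ler allele the intact one. Reads of NRPD1 assigned to Col numbered 9, 1 and 11 in paternal nrpd1 and 10, 36 and 15 in wild type. Those assigned to Ler numbered 20, 1 and 10 in paternal nrpd1 and 10, 33 and 27 in wild type. The Col share of these few reads, pooled over libraries, was 40.4% in paternal nrpd1 (95% Wilson interval 28.2% to 53.9%, counting error only) and 46.6% in wild type (38.2% to 55.1%), and the intervals overlap.

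The genes that DESeq2 called higher were nearly silent in wild-type endosperm. AT3G14670, a protein-coding gene of unknown function (chr3:4927682-4929018, plus strand), measured 5.75, 2.53 and 3.48 CPM in paternal nrpd1 and 0, 0.0225 and 0 CPM in wild type. That is 400 counts against 1, a ratio of library-scaled counts of 386 with an exact 95% interval of 68.8 to 15270 for counting error only. Of its reads that could be assigned to an allele, 104, 29 and 56 in paternal nrpd1 replicates 1 to 3 carried the Col allele and 0 the Ler allele, while wild type had 0 of either. Its reads in the mutant cross thus bore the father's allele wherever an allele could be read, though fathers were Col in every cross and an allele's parent cannot be separated from its strain. The log2 difference was 8.14 (SE 0.93, edgeR adjusted p = 0.410, DESeq2 adjusted p = 2.94e-06). CYP72A13, a cytochrome P450 gene that ends 74 bases upstream on the same strand, measured 9.37, 5.17 and 4.38 CPM in paternal nrpd1 and 5.10, 9.50 and 6.01 CPM in wild type, so the groups overlapped at the neighbour.

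AT1G75945, a short protein-coding gene of unknown function (chr1:28515245-28515916, minus strand), followed the same pattern from a less silent start. It measured 2.83, 18.9 and 6.62 CPM in paternal nrpd1 and 1.12, 0.270 and 0.0699 CPM in wild type, without overlap. The log2 difference was 4.33 (SE 1.06, edgeR adjusted p = 0.616, DESeq2 adjusted p = 0.0176). Its allele reads were 317 Col and 0 Ler in paternal nrpd1 and 18 Col and 0 Ler in wild type, so Col reads alone were seen in both groups. Its near neighbour SKP1, a subunit of ubiquitin ligases, overlapped between the groups, at 296 to 648 CPM in paternal nrpd1 and 220 to 517 CPM in wild type.

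SADHU5-1 (AT4G01525, chr4:660810-661698, plus strand) is a member of the Sadhu family of non-coding retrotransposons, a class of sequence that RNA-directed DNA methylation is known to target. It measured 3.85, 2.65 and 1.98 CPM in paternal nrpd1 and 0.492, 0.293 and 0.105 CPM in wild type. Every paternal nrpd1 library was above every wild-type one, at log2 3.25 (SE 0.71, edgeR adjusted p = 0.616, DESeq2 adjusted p = 0.0141). No read of it was assigned to an allele in any library. Sadhu elements occur in related copies, so reads of 40 bases may be shared among them and the counts of this copy are uncertain.

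The other 2 genes called higher were AT4G04077, a long non-coding RNA annotated as antisense to AT4G04078, and AT3G17980 (symbol C2), which encodes a calcium-dependent lipid-binding protein. AT4G04077 measured 3.00, 0.856 and 1.82 CPM in paternal nrpd1 and 0.224, 0.225 and 0.210 CPM in wild type (log2 3.09, SE 0.71, DESeq2 adjusted p = 0.0406). Its Col reads were 31, 0 and 16 in paternal nrpd1 replicates 1 to 3 (47 in all) and 0 in each wild-type library. Its Ler reads were 9, 3 and 13 in paternal nrpd1 (25 in all) and 4, 3 and 3 in wild type (10 in all). Paternal replicate 2 thus had no Col read. Whether strand was used in counting is not stated, so its reads cannot be separated from those of its antisense partner. C2 measured 2.92, 1.63 and 1.82 CPM in paternal nrpd1 and 0.403, 0.450 and 0.349 CPM in wild type (log2 2.39, SE 0.57, DESeq2 adjusted p = 0.0488), without overlap between the groups.

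At the opposite end, AT1G66320 had reads in wild type alone. This gene encodes an F-box protein of the RNI-like superfamily (chr1:24726812-24728637, minus strand). It had 0 counts in all 3 paternal nrpd1 libraries and 15, 47 and 19 counts in wild type, or 0 CPM against 0.671, 1.06 and 0.664 CPM. With 3 counts over the group as the limit that a count of 0 allows, it was at least 28.0-fold lower (DESeq2 adjusted p = 0.0176, edgeR adjusted p = 0.616). Only 4 of its wild-type reads were assigned to an allele, and all 4 carried Col.

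The sequence upstream of these 4 genes is shown because DNA methylation at a promoter acts on such stretches, with CG dinucleotides in capitals. Each is read 5′ to 3′ on the gene's strand from TAIR10.1, for up to 250 bases before the annotated start and no further than the next gene.
AT3G14670 upstream, chr3:4927608-4927681, plus strand: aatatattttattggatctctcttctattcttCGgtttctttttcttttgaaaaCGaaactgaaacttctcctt
AT1G75945 upstream, chr1:28515917-28516166, minus strand: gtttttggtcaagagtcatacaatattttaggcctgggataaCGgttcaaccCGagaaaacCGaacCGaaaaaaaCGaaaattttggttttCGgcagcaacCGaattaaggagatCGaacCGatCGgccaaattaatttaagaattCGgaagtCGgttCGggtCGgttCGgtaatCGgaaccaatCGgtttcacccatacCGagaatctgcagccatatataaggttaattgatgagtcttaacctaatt
SADHU5-1 upstream, chr4:660560-660809, plus strand: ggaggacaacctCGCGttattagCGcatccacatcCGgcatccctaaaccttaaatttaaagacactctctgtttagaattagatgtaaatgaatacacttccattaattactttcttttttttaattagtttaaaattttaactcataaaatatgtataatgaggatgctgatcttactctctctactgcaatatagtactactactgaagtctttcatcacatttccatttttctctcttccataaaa
AT1G66320 upstream, chr1:24728638-24728887, minus strand: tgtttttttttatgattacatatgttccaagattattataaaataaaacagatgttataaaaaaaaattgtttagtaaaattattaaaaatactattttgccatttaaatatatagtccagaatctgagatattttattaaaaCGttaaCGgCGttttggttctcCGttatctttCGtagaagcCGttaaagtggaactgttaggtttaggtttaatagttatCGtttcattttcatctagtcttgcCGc
The motif searched was CG, which reads the same on both strands. The 250 bases before AT1G75945 held 18 of them, and 0.9% of the 18827 tested genes with an annotated start had as many in a window of that length, where the median was 5. The windows of AT1G66320 and SADHU5-1 held 8 and 4, reached by 25.9% and 65.9% of genes. The 74 bases before AT3G14670 held 2, reached by 47.5% of windows of 74 bases. The windows of the tested genes used for these shares may run into a neighbouring gene, where those shown do not. Among these stretches AT1G75945 alone was rich in CG. Cytosines outside CG were not counted, and methylation was not measured here.

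**Figure D1:**
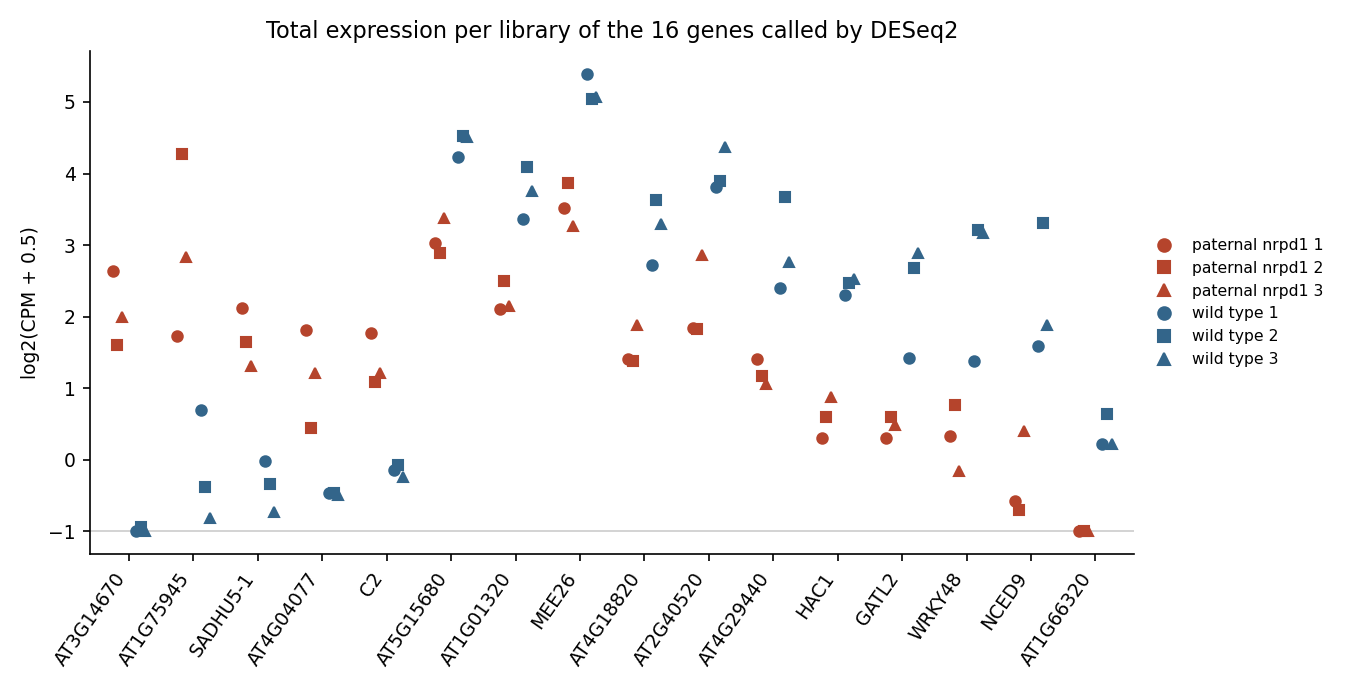
Level of the 16 genes called by DESeq2 in each library, as log2(CPM + 0.5), with paternal nrpd1 libraries in red left of the wild-type libraries in blue. The grey line marks a level of 0, where AT3G14670 lies in wild-type replicates 1 and 3 and AT1G66320 in every paternal nrpd1 library, and the groups do not overlap at any of the 16 genes.

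The other genes that DESeq2 called lower were of mixed function, with a single gene each for hormone synthesis, cell walls, transcription and chromatin. MEE26 (AT2G34870), a hydroxyproline-rich glycoprotein gene named after an arrest of embryo development when the mother's copy is lost, had the smallest edgeR p among genes of at least 5 CPM. It measured 11.0, 14.2 and 9.16 CPM in paternal nrpd1 and 41.6, 32.5 and 33.1 CPM in wild type. Both groups were tight and far apart, with means of 11.4 ± 2.53 and 35.7 ± 5.11 CPM (SD, n = 3 each) and log2 -1.64 between them (SE 0.29, edgeR adjusted p = 0.616, DESeq2 adjusted p = 0.0247). Its transcript of 717 bases is short, and with transcript length taken into account the difference was -2.19 (DESeq2 adjusted p = 0.000954).

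NCED9, a dioxygenase of abscisic acid synthesis in seeds, measured 0.170, 0.117 and 0.818 CPM in paternal nrpd1 and 2.50, 9.45 and 3.18 CPM in wild type (log2 -3.74, SE 0.91, DESeq2 adjusted p = 0.0241). WRKY48, a transcription factor induced by stress and pathogens, measured 0.764, 1.21 and 0.396 CPM in paternal nrpd1 and 2.102, 8.78 and 8.46 CPM in wild type (log2 -3.04, SE 0.69, DESeq2 adjusted p = 0.0291). GATL2, which encodes a putative galacturonosyltransferase, measured 0.736, 1.01 and 0.897 CPM in paternal nrpd1 and 2.19, 5.92 and 6.92 CPM in wild type (log2 -2.51, SE 0.55, DESeq2 adjusted p = 0.0291). In all 3 genes the groups did not overlap, and wild-type replicate 1 was the lowest of the wild-type libraries.

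HAC1, a histone acetyltransferase of the CBP family, measured 0.736, 1.01 and 1.35 CPM in paternal nrpd1 and 4.43, 5.06 and 5.24 CPM in wild type. The means were 1.03 ± 0.305 and 4.91 ± 0.428 CPM (SD, n = 3 each), with log2 -2.25 (SE 0.44, DESeq2 adjusted p = 0.00563). It was also the gene that edgeR called when all 11 libraries shared one estimate of spread (log2 -2.27, adjusted p = 0.0220). HAC1 has a transcript of 6214 bases, and the offset for length left a difference of -1.26 (DESeq2 adjusted p = 0.559). The remaining 5 genes called lower by DESeq2 were AT2G40520 (a nucleotidyltransferase, log2 -1.90), AT4G18820 (an AAA-type ATPase, -1.87), AT4G29440 (a regulator of Vps4, -2.09), AT1G01320 (a TPR-repeat protein, -1.61) and AT5G15680 (an ARM-repeat protein, -1.36), each without overlap.

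Genes with longer transcripts measured lower in paternal nrpd1, and this pattern ran through the whole comparison. Across 18827 genes with an annotated transcript, Spearman's rho between the log2 difference and transcript length was -0.63, as a description across genes that share the same 6 libraries. The median log2 difference was 0.47 for the 3051 genes under 1000 bases, 0.03 for those of 1500 to 1999 bases and -1.08 for the 770 genes of 4000 bases and over. Of these 770 genes, 308 (40.0%) lay lower in every paternal nrpd1 library than in every wild-type library and 5 (0.649%) lay higher. Over all 18901 features, 6.37% lay lower without overlap and 6.58% higher. In the homozygous comparison rho was -0.26 over 18356 genes.

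The libraries behind this were not split by genotype alone. For genes of 4000 bases and over, the median deviation from the gene's mean was -0.30, -0.70 and -0.33 in paternal nrpd1 and -0.07, 0.89 and 0.62 in wild type, on the log2(CPM + 0.5) scale. For genes under 1000 bases it was -0.11, 0.92 and -0.05 in paternal nrpd1 and 0.56, -0.76 and -0.54 in wild type. Wild-type replicate 1 thus lay near the mutants rather than near wild-type replicates 2 and 3. An offset fitted to transcript length in each library brought rho to -0.05, which follows from the fit, since each library's own trend was taken out. A genotype difference that follows length is taken out with it. A smaller value with the offset therefore does not tell genotype from length. The list medians and the differences given for list members below are accompanied by their value with the offset. Over all 18827 genes the median log2 difference with the offset was 0.08.

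**Figure D2:**
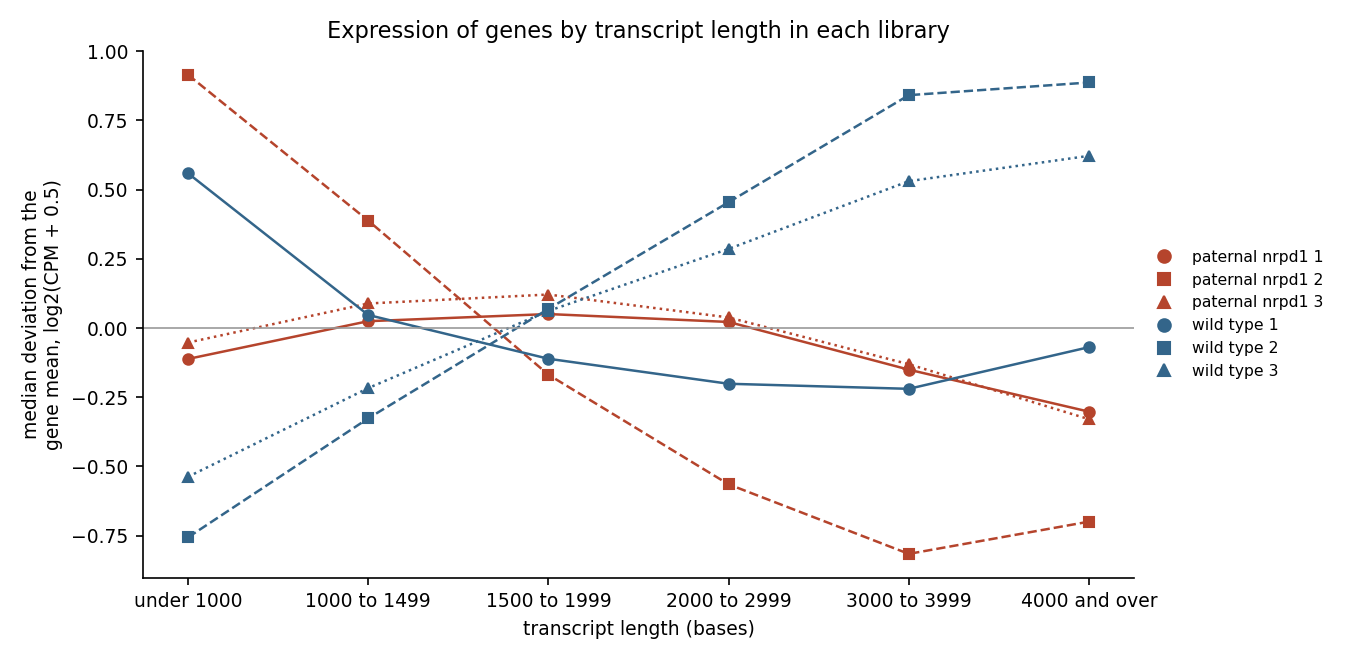
Median deviation from the gene mean, on the log2(CPM + 0.5) scale, by transcript length in bases, for 3 paternal nrpd1 libraries (red) and 3 wild-type libraries (blue). In the longest class the values are -0.30, -0.70 and -0.33 in paternal nrpd1 and -0.07, 0.89 and 0.62 in wild type.

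With the offset, DESeq2 called 6 genes higher and 17 lower, and 9 of these 23 were among its 16 calls without it. Those 9 were AT3G14670, AT1G75945 and SADHU5-1 on the higher side and MEE26, NCED9, WRKY48, GATL2, AT2G40520 and AT1G66320 on the lower side. All 16 genes kept the sign of their difference. edgeR with the offset called 0 genes, with 849 at an unadjusted p under 0.05. Without paternal replicate 2 and wild-type replicate 1, DESeq2 called 446 genes higher and 866 lower of 19138, including 10 of the 16, while edgeR called 0 and gave 3359 at an unadjusted p under 0.05. These 2 libraries were picked after the data were seen, and the libraries kept are split by transcript length. At 4000 bases and over they deviated by -0.30 and -0.33 in paternal nrpd1 and by 0.89 and 0.62 in wild type. The rise in calls therefore adds no support for the 16 genes. In edgeR without paternal replicate 2 and wild-type replicate 1, AT3G14670 measured 8.06, AT1G75945 4.66, SADHU5-1 3.76, MEE26 -1.76 and HAC1 -2.36 on the log2 scale.

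Among better expressed genes, those of smallest p showed the same split by length. The 12 such genes measured higher had transcripts of 528 to 1882 bases and log2 differences of 0.90 to 2.14. They included BCB, a blue copper-binding protein of the cell surface, at 17.43, 25.98 and 18.18 CPM in paternal nrpd1 and 6.44, 8.76 and 8.81 CPM in wild type, and MEMB11, a SNARE protein of vesicle traffic, at 57.8, 68.1 and 47.5 CPM in paternal nrpd1 and 30.1, 25.8 and 27.9 CPM in wild type. TRZ1, which trims the ends of transfer RNAs, measured 16.2, 17.0 and 18.155 CPM in paternal nrpd1 and 9.48, 7.97 and 9.19 CPM in wild type. The rest were RALFL8 (a peptide signal), LPPepsilon1 (a phosphatidic acid phosphatase), AT3G56730, AT3G61560, AT2G25030, AT2G27480, AT1G11765, AT5G02650 and AT4G16510. None was called by edgeR or DESeq2, and 9 of the 12 stayed at an unadjusted p under 0.05 with the offset.

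Of the 12 measured lower, 9 had transcripts of 4000 bases or more. Beside MEE26, AT5G15680, AT1G01320, AT4G18820 and AT2G40520 they were FAB1C (a phosphoinositide kinase, log2 -1.32), MYA2 (a myosin, -1.71), NRPB1 (the largest subunit of RNA polymerase II, -1.28), TRN1 (a regulator of leaf and root patterning, -1.82), THO2 (mRNA export, -1.48), ATMIN7 (vesicle traffic, -1.21) and CLSY4 (-1.94). With the offset 6 of the 12 stayed at an unadjusted p under 0.05, among them CLSY4 at -0.95, while ATMIN7 came to -0.16 and NRPB1 to -0.26.

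The genes of RNA-directed DNA methylation were measured to see whether the pathway's other parts moved with NRPD1. Of 27 genes, all tested, 0 were called by edgeR or DESeq2. Differences were negative in 23 and positive in 4, against 49.1% negative and 50.9% positive over all features, and the median was -0.78 against 0.01. In 6 genes (22.2%) each paternal nrpd1 library was lower than each wild-type one, against 6.37% of all features, and in 1 (3.70%) each was higher, against 6.58%. With the offset for length the median was -0.02, against 0.08 over all genes with a transcript length. With it 16 of 27 were negative, a share that was not counted over all features. The median transcript in the list has 3123 bases. Without paternal replicate 2 and wild-type replicate 1 the median was -0.80. The list was drawn up with earlier results of these data known, so these counts are a description.

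CLSY4, one of the chromatin remodellers that bring RNA polymerase IV to its sites, measured 4.56, 6.65 and 9.13 CPM in paternal nrpd1 and 12.8, 36.6 and 28.4 CPM in wild type (log2 -1.94, SE 0.46, edgeR adjusted p = 0.616, and -0.95 with the offset). CLSY1, a related remodeller, measured 34.8, 20.8 and 33.1 CPM in paternal nrpd1 and 35.8, 67.9 and 60.0 CPM in wild type (log2 -0.88, but 0.07 with the offset). Neither gene overlapped between groups, though wild-type replicate 1 came within about 1 CPM of paternal replicate 1 at CLSY1. NRPE1, the largest subunit of RNA polymerase V, measured -0.98 on the log2 scale and 0.09 with the offset, with overlap between groups.

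Of the Argonautes, AGO9 measured 0.623, 1.56 and 2.14 CPM in paternal nrpd1 and 3.44, 7.92 and 3.46 CPM in wild type (log2 -1.78, SE 0.61, and -0.96 with the offset), and AGO4 measured 132, 50.6 and 130 CPM in paternal nrpd1 and 110, 338 and 298 CPM in wild type (log2 -1.25, and -0.44 with the offset). AGO4 overlapped because wild-type replicate 1 was below 2 of the mutant libraries. MORC6, an ATPase that compacts silenced chromatin, measured -1.15, and -0.56 with the offset. RDR2, DCL3 and DRM2 overlapped between groups and measured -0.77, -1.10 and -0.52, and 0.09, -0.11 and -0.06 with the offset. SHH1, a reader of histone marks that recruits RNA polymerase IV, was the gene with all mutant libraries higher (11.1, 11.7 and 11.0 CPM in paternal nrpd1 and 9.08, 7.86 and 9.71 CPM in wild type, log2 0.34, but -0.01 with the offset).

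**Figure D3:**
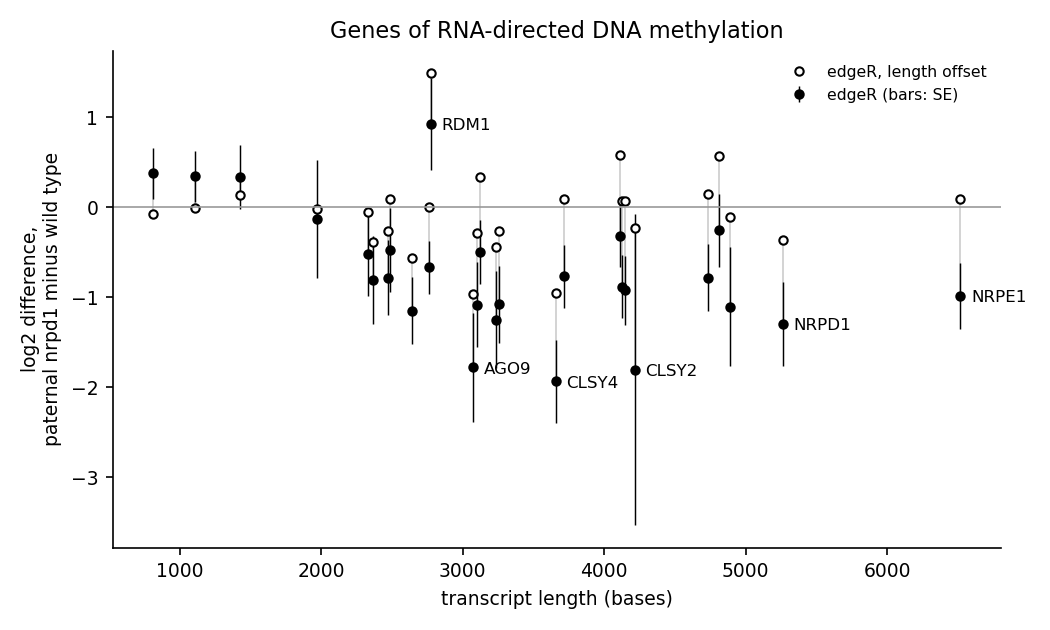
Log2 difference, paternal nrpd1 minus wild type, of the 27 genes of RNA-directed DNA methylation against transcript length in bases (filled points with SE bars), and the same with the length offset (open points, joined by grey lines). NRPD1 is at -1.30, and at -0.36 with the offset, and the median of the list is -0.78, and -0.02 with the offset.

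ROS1, the demethylase that removes cytosine methylation and whose own transcription is known to depend on methylation near its promoter, measured 54.1, 19.1 and 26.3 CPM in paternal nrpd1 and 47.7, 204 and 136 CPM in wild type. Wild-type replicate 1 lay among the mutants. The log2 difference was -1.96 (SE 0.60, edgeR adjusted p = 0.616), and -0.83 with the offset. In homozygous nrpd1 edgeR called ROS1 lower, at -1.72 (adjusted p = 0.0325). DME, the demethylase that sets up imprinting in the central cell, measured -1.12, and -0.06 with the offset. Of 14 genes tested for maintaining or removing methylation (of 15), 11 were negative, with a median of -0.58, and 0.08 with the offset, and 0 were called by edgeR or DESeq2. DML2, a related demethylase, measured -1.42, and -0.31 with the offset. DML3, left out by the filter, had 0, 0 and 1 counts in paternal nrpd1 and 10, 2 and 6 in wild type.

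Imprinted genes and the Polycomb complex that silences many of them gave 0 calls by edgeR or DESeq2. Of 11 paternally expressed genes tested (of 12), 8 were negative, with a median of -0.43, and -0.11 with the offset. HDG3, a homeodomain transcription factor of endosperm development, measured 30.8, 33.2 and 59.6 CPM in paternal nrpd1 and 83.7, 73.3 and 82.2 CPM in wild type (log2 -0.95, SE 0.33, edgeR adjusted p = 0.616, and -0.39 with the offset). Its groups did not overlap. YUC10, an auxin synthesis enzyme, measured 3.28, 3.62 and 4.12 CPM in paternal nrpd1 and 7.51, 5.1996 and 5.77 CPM in wild type (log2 -0.74, and -1.004 with the offset), and PKR2, a chromatin remodeller, measured -1.41 with no overlap, and -0.46 with the offset.

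Of 6 maternally expressed genes tested (of 8), 3 were negative and 3 positive, with a median of 0.01 that ranged between -0.21 and 0.27 with 1 library left out and was 0.13 with the offset. FIS2, a subunit of the seed Polycomb complex, measured 0.255, 0.622 and 1.24 CPM in paternal nrpd1 and 1.65, 3.53 and 2.06 CPM in wild type (log2 -1.77, SE 0.70, edgeR adjusted p = 0.616, and -1.18 with the offset). FWA, a homeodomain transcription factor, and MPC overlapped between groups, at 0.62 and 0.51, and at 1.13 and 0.28 with the offset. MEA, the catalytic partner of FIS2, had at most 4 counts in a paternal nrpd1 library and at most 5 in a wild-type one, below the filter. Among 7 Polycomb genes tested (of 8) the median was -0.56, and -0.14 with the offset. The histone methyltransferases SWN and CLF measured -0.99 and -0.97, and -0.17 and -0.14 with the offset, with overlap. Among type I MADS-box genes, which mark early endosperm, 7 of 16 were tested, with a median of 0.07 that was 1.42 without wild-type replicate 1 and -0.34 with the offset. AGL28 and AGL91 measured 1.09 and 1.46, and 0.93 and 1.16 with the offset, at levels under 2 CPM in every library and with overlap.

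Seed storage and maturation genes had mostly negative differences, with and without the length offset, but the libraries overlapped. Of 21 genes, all tested, 19 were negative, with a median of -1.13, and -1.50 with the offset, and 0 were called by edgeR or DESeq2. In 3 genes (14.3%) each paternal nrpd1 library was lower than each wild-type one, against 6.37% of all features. The median deviation of the list was -0.01, -0.47 and -1.22 in paternal nrpd1 and -0.18, 1.098 and 0.44 in wild type, so wild-type replicate 1 lay among the mutants. With 1 library left out the median ranged between -1.97 (without paternal replicate 1) and -0.31 (without wild-type replicate 2), and it was -1.23 without paternal replicate 2 and wild-type replicate 1. OLEO1, a protein of oil bodies, measured 172, 102 and 75.1 CPM in paternal nrpd1 and 294, 482 and 258 CPM in wild type, with no overlap (log2 -1.57, SE 0.44, edgeR adjusted p = 0.616, and -2.02 with the offset). OLEO2 measured 365, 326 and 179 CPM in paternal nrpd1 and 536, 653 and 580 CPM in wild type, again apart (log2 -1.02, SE 0.38, and -1.50 with the offset). The cruciferin CRA1, a storage globulin, ranged far more widely, at 182, 27.0 and 3.404 CPM in paternal nrpd1 and 25.0, 730 and 334 CPM in wild type. CRC, another cruciferin, measured 0, 0.583 and 0.0264 CPM in paternal nrpd1 and 0, 18.7 and 3.74 CPM in wild type, with wild-type replicate 1 at 0. The early regulators of maturation differed less, with LEC1 at 0.62, FUS3 at -0.19 and ABI3 at -0.59 on the log2 scale, and at 0.11, -0.26 and 0.19 with the offset.

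Storage proteins are made in both embryo and endosperm as seeds mature. Embryo markers summed to 184, 115 and 92.3 CPM in paternal nrpd1 and 103, 153 and 186 CPM in wild type, and CUC2 among them had 0 counts in every library. In 10 of 15 embryo markers tested the median difference was -0.38, and -0.19 with the offset. PDF1, an epidermal protein gene, was lower in each mutant library (3.65, 4.16 and 2.85 CPM in paternal nrpd1 and 4.61, 5.1996 and 6.15 CPM in wild type), while the transcription factor WOX2 and the auxin carrier PIN7 overlapped between groups, at -1.15 and -1.06, and at -1.37 and -0.33 with the offset. In bulk tissue, fewer cells of a type and less RNA per cell cannot be told apart. The part of embryo RNA in the storage gene values was not tested.

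Heat shock genes were high in one library. All 12 tested of 14 were positive, with a median of 2.40, and 2.20 with the offset, but this was 0.15 without paternal replicate 2 and 0.77 when wild-type replicate 1 was left out with it. HSP17.4, a small chaperone, measured 2.60, 132 and 1.98 CPM in paternal nrpd1 and 5.99, 1.53 and 3.32 CPM in wild type (log2 3.66, 2.58 with the offset, and -0.65 without paternal replicate 2). HSP23.6, a small chaperone of mitochondria, measured 0.0283, 27.7 and 1.79 CPM in paternal nrpd1 and 1.12, 0.360 and 0.175 CPM in wild type. ROF2, a co-chaperone, was the member without overlap, at 6.25, 37.5 and 7.34 CPM in paternal nrpd1 and 5.46, 4.82 and 3.32 CPM in wild type (log2 1.91, SE 0.70, edgeR adjusted p = 0.616, and 2.43 with the offset). HSP21, below the filter, had 39 counts in paternal replicate 2 and 0 in the other libraries.

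The remaining lists held no gene called by edgeR or DESeq2. Nutrient transfer genes (13 tested) had a median of 0.11, cell division genes (18) 0.06 and photosynthesis genes (22) 0.15, and these were 0.19, 0.02 and -0.11 with the offset. Each of these medians changed sign with 1 library left out, over -0.30 to 0.33, -0.20 to 0.21 and -0.22 to 0.37. CWINV2, a cell wall invertase, and UMAMIT29, a transporter, overlapped between groups at 1.12 and -0.43 (1.40 and -0.54 with the offset), as did RCA, the rubisco activase, and LHCB6, a light-harvesting protein, at -0.50 and 0.75 (-0.27 and 0.47). PLEIADE, a microtubule-associated protein of dividing cells, did not overlap, at -0.93, and -0.31 with the offset. SWEET12, a sucrose transporter, measured 109, 35.8 and 37.6 CPM in paternal nrpd1 and 24.2, 38.8 and 38.1 CPM in wild type, so a single mutant library was high. Sulfur deficiency genes, with 11 of 13 tested, had a median of -0.36 here, -0.13 with the offset, and 1.54 in homozygous nrpd1. GGCT2;1, an enzyme of glutathione breakdown, measured 0.255, 1.87 and 5.12 CPM in paternal nrpd1 and 0.403, 0.428 and 0.175 CPM in wild type. SHM7 and BGLU28 overlapped too, at -0.88 and -1.26, and at -0.54 and -1.15 with the offset.

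**Figure D4:**
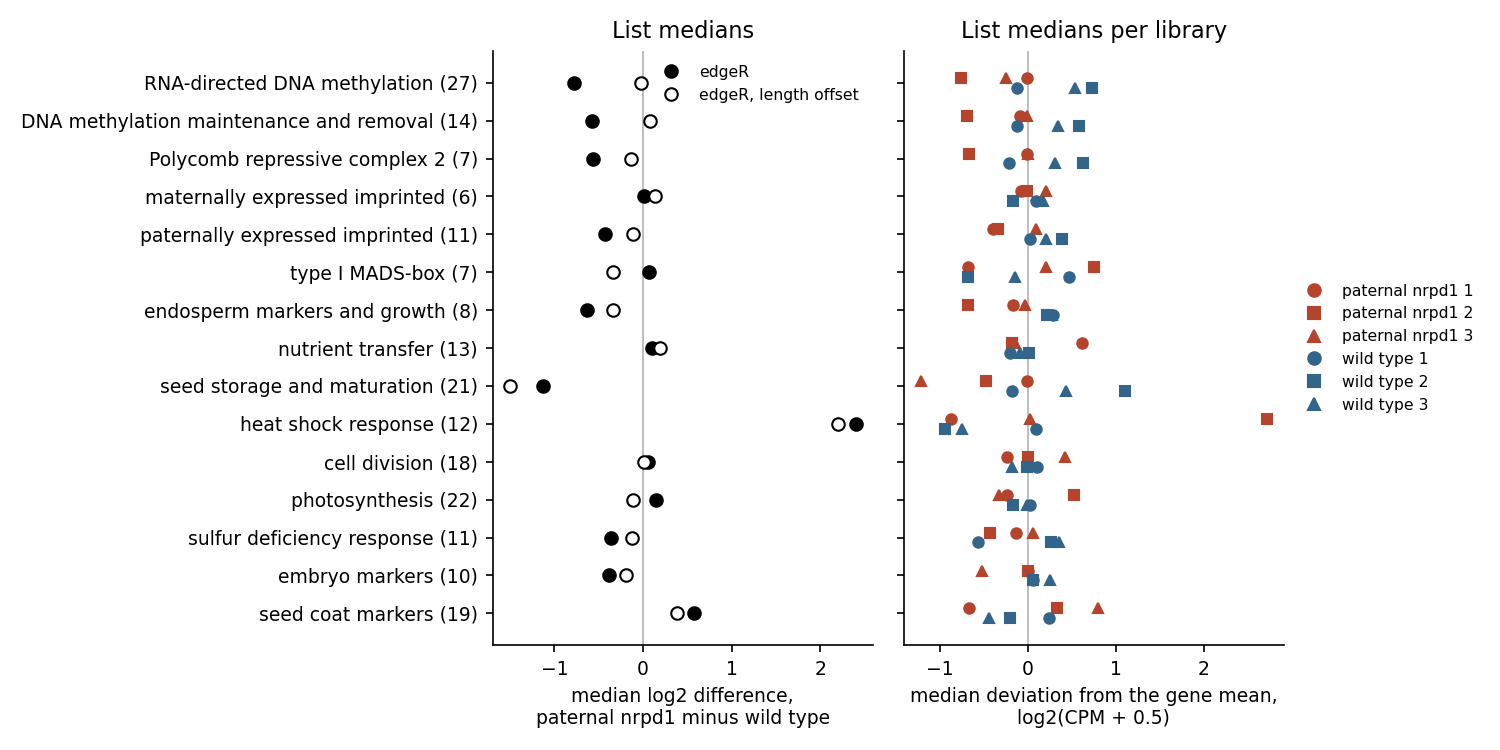
Left, median log2 difference of each gene list, paternal nrpd1 minus wild type, without (filled) and with (open) the length offset, with the number of tested genes in brackets. Right, the median deviation from the gene mean of each list in each library, on the log2(CPM + 0.5) scale, with paternal nrpd1 in red above wild type in blue; the heat shock value of 2.72 in paternal replicate 2 stands apart.

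Markers of endosperm and of the seed coat around it were both detected. Of 12 endosperm markers, 8 were tested, and the list summed to 240, 166 and 219 CPM in paternal nrpd1 and 292, 323 and 324 CPM in wild type, lower in each mutant library. This rests in part on HDG3, also in the paternally expressed list, at 30.8, 33.2 and 59.6 CPM in paternal nrpd1 and 83.7, 73.3 and 82.2 CPM in wild type. Of the 8, only HDG3 and YUC10 (25.0%) were lower without overlap, against 6.37% of all features. ALE1, an endosperm protease, overlapped, at 128, 73.7 and 81.5 CPM in paternal nrpd1 and 115, 155 and 162 CPM in wild type, and MINI3 and SHB1 had 0 counts in every library. The median of the 8 was -0.63, and -0.34 with the offset.

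Seed coat is maternal tissue. Of its markers tested, 11 were positive and 8 negative, with a median of 0.57, and 0.38 with the offset, that ranged between -0.12 and 1.02 with 1 library left out. Its 21 markers, of which 19 were tested and MYB5 had 0 counts in all libraries, summed to 432, 877 and 1578 CPM in paternal nrpd1 and 795, 694 and 661 CPM in wild type. TT4, the chalcone synthase of flavonoid synthesis, measured 96.4, 326 and 586 CPM in paternal nrpd1 and 196, 86.9 and 112 CPM in wild type, and its allele reads were 1 Col and 1003 Ler in paternal nrpd1 and 1 Col and 329 Ler in wild type. PRX36, a peroxidase of mucilage release, measured 2.63, 68.8 and 81.7 CPM in paternal nrpd1 and 16.1, 1.40 and 6.08 CPM in wild type. TT10, a laccase of seed coat browning, went the other way, at 32.5, 39.2 and 75.9 CPM in paternal nrpd1 and 67.5, 137 and 84.0 CPM in wild type, with overlap (log2 -0.96, and -0.71 with the offset). The summed markers ranged more widely among mutant than among wild-type libraries. The part of seed coat RNA in the other differences was not tested.

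Transcripts of the organelle genomes made up a smaller share of the counts in each paternal nrpd1 library. Chloroplast and mitochondrial genes together took 0.0771%, 0.0825% and 0.0894% of counts in paternal nrpd1 and 0.252%, 0.275% and 0.189% in wild type. The means were 0.0830% ± 0.00615 and 0.239% ± 0.0445 (SD, n = 3 each), a difference of -0.156 points. The two-sided exact permutation test gave p = 0.1, the smallest that 3 against 3 libraries allow. Chloroplast genes alone (0.0326% and 0.0863%) and mitochondrial genes alone (0.0504% and 0.153%) gave the same p, each without overlap.

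Gene by gene, 74 organelle features were tested, and 26 (35.1%) lay lower in every paternal nrpd1 library, against 6.37% of all features, and 0 higher, against 6.58%, with a median log2 difference of -1.11. ATMG00020, the most abundant of them, measured 553, 580 and 341 CPM in paternal nrpd1 and 1828, 1324 and 970 CPM in wild type (log2 -1.48, SE 0.42, edgeR adjusted p = 0.616). ATCG00480 measured 18.199, 30.2 and 33.75 CPM in paternal nrpd1 and 65.0, 67.2 and 51.5 CPM in wild type (log2 -1.16). Wild-type replicate 1, near the mutants by transcript length, was with its own group here. Nuclear photosynthesis genes, such as RBCS1A at 18453, 24917 and 11209 CPM in paternal nrpd1 and 15912, 6739 and 10618 CPM in wild type, overlapped between the groups.

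**Figure D5:**
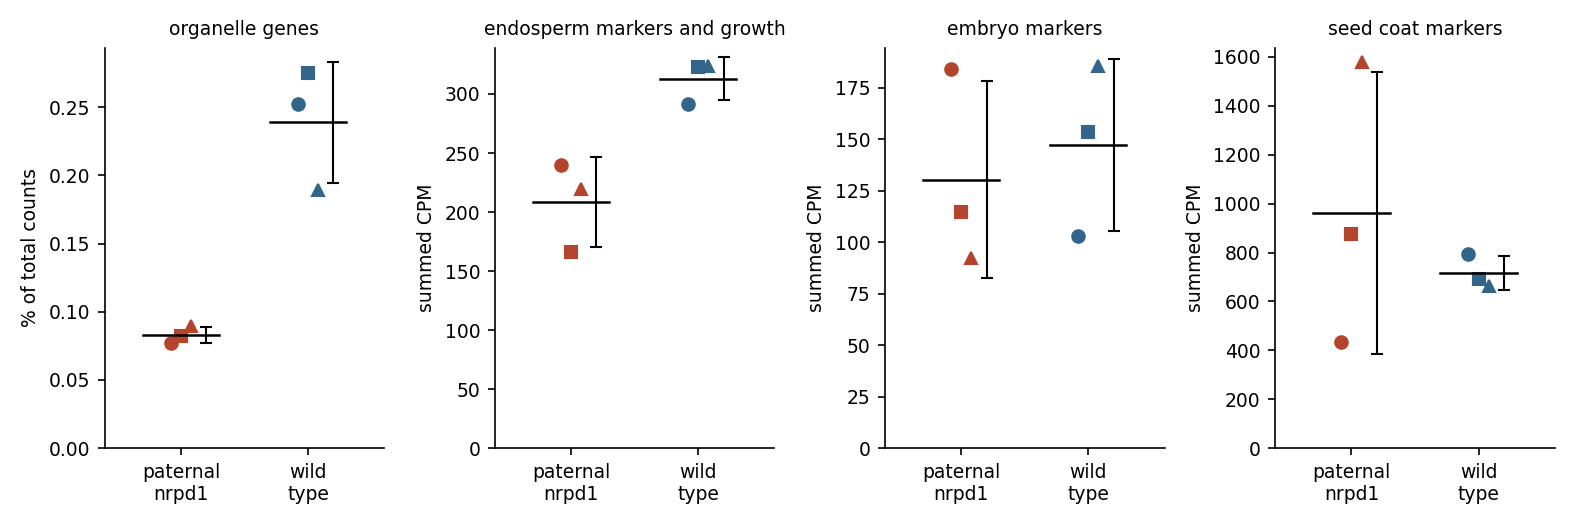
Share of counts in organelle genes (% of total counts) and summed CPM of endosperm, embryo and seed coat markers in each library, paternal nrpd1 left (red) and wild type right (blue), with the mean (line) and SD (bar) of 3 libraries each. The organelle share is 0.0771% to 0.0894% in paternal nrpd1 and 0.189% to 0.275% in wild type, without overlap, while the embryo and seed coat sums overlap.

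The most abundant transcripts overlapped between the groups. LCR69, a defensin-like peptide gene, measured 18938, 52250 and 8579.5 CPM in paternal nrpd1 and 80373, 11196 and 11982 CPM in wild type, and the lipid-transfer-like genes AT5G38170 and AT5G38160 were likewise highest in wild-type replicate 1. With the length offset DESeq2 called AT5G38160 lower (log2 -1.40, adjusted p = 0.0138). The 10 most abundant genes held 8.60%, 12.0% and 6.70% of counts in paternal nrpd1 and 19.5%, 7.85% and 8.02% in wild type. ENODL3, an early nodulin-like protein gene, overlapped too.

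Whether losing the father's copy has another effect than losing both parents' copies was tested as a difference of effects over all 11 libraries. In edgeR 0 of 20078 features were called (0%), with a smallest adjusted p of 0.0821 (AT1G60470, chosen after its values were seen) and 1467 at an unadjusted p under 0.05 (7.31%), while DESeq2 called 14 higher and 83 lower. Several of the DESeq2 calls have locus numbers close to that of NRPD1 (AT1G63020) on chromosome 1. Among them were AT1G60470, AT1G62080, AT1G63390 and AT1G63540, also picked after their values were seen. Neither the number of such calls nor the share of all 20078 features in that stretch was counted. An excess of calls near NRPD1 is therefore not shown, and no cause was tested. The homozygous comparison alone gave 43 calls higher (0.232%) and 19 lower (0.102%) of 18570. MEE26 measured -1.64 in paternal and -0.87 in homozygous nrpd1, and HAC1 -2.25 and -0.07. The difference of effects had an adjusted p of 0.715 at MEE26 and 0.103 at HAC1 in edgeR, while DESeq2 called HAC1 for it (log2 -2.12, adjusted p = 4.87e-07), along with NCED9, WRKY48, AT4G18820, AT4G29440 and AT5G15680, all lower. No length offset entered this contrast, though rho with transcript length was -0.63 in the paternal and -0.26 in the homozygous comparison. HAC1, AT4G18820, AT4G29440 and AT5G15680 have transcripts of 3700 to 6942 bases. With the offset DESeq2 called none of them in the paternal comparison (adjusted p of 0.559, 0.587, 0.587 and 0.985). BCB measured 1.36 and 1.38. AT1G66320, with 0 counts in paternal nrpd1, measured -2.79 in homozygous nrpd1 (edgeR adjusted p = 0.319). It lay there at 0.352, 0 and 0.285 CPM, against 2.07 and 1.09 CPM in wild type of the first experiment. AT3G14670, SADHU5-1 and C2 did not pass the filter on low counts in the first experiment alone. AT1G75945 was not tested there or in the difference of effects. In edgeR that difference was 6.02 at AT3G14670 (SE 1.88, adjusted p = 0.609) and 1.84 at C2 (SE 0.71, adjusted p = 0.638). At SADHU5-1 it was 3.22 with an SE of 3774.5, which gives no usable estimate. A rise of these genes in homozygous nrpd1 is therefore not shown. The kit, amplification cycles, read length and age of the endosperm changed together between the experiments. So did the parents, and with them the strains, that carried the mutation. These cannot be told apart in this contrast.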

How the data were processed

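Raw counts per feature were deposited by the authors for each library, for all reads and for reads assigned to the Col or Ler allele. Reads were handled with cutadapt, Trim Galore, FastQC, TopHat and HTSeq on the build TAIR10, per the submitters' processing notes, without versions; allele assignment and use of strand are not given in the sources used here. Summary lines that name no gene, 11.6% to 13.3% of each table, were left out. Symbols, transcript lengths, coordinates and upstream sequences came from TAIR10.1 (RefSeq), in which 37051 of 37336 features matched.

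Counts were tested in edgeR 4.0.16 (R 4.3.3): TMM factors, filterByExpr, two-sided quasi-likelihood tests, Benjamini-Hochberg adjustment over all tested features, threshold 0.05. DESeq2 1.42.0 and limma 3.58.1 were alternatives. The length offset was a natural spline (4 degrees of freedom) of each library's deviation in log2 CPM on log10 transcript length. The tests were checked on simulated counts of 18390 genes, some of them changed by a set fold. edgeR made 7 calls of unchanged genes and DESeq2 made 43. At a 4-fold change edgeR recovered 11 of 48 changed genes and DESeq2 27 of 48. At 16-fold they recovered 46 and 47 of 48. Replicates are separate samples per the labels, so p-values measure the spread between these samples. Intervals (95%) and limits set by 3 counts take in counting error alone, since reads carry no molecular identifiers.

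Members and lists were chosen with earlier results of these data known. Named genes are NRPD1, the 12 of smallest p in each direction with a mean of at least 5 CPM and no overlap, every gene called by DESeq2, 3 of smallest p in each list and the 5 most abundant. Other list members and organelle features, and neighbours, were named after their values were seen. Same-numbered libraries deviated with correlations of -0.42, -0.59 and 0.10, so the numbers were not used as pairs.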

Additional observations from a re-analysis of the deposited data

How the results depend on the processing

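Counts of edgeR calls between paternal nrpd1 and wild type stayed at 0 with DESeq2 size factors, upper-quartile factors, no organelle genes, no filter, at least 5 CPM, robust fitting, and each library left out (0 to 0 higher and lower). DESeq2 called 5 higher and 11 lower, voom 1 higher, and edgeR over all 11 libraries 1 lower. Alternatives added after seeing the data were a length offset (DESeq2: 6 higher, 17 lower) and leaving out wild-type replicate 1 with paternal replicate 2 (DESeq2: 446 higher, 866 lower). Leaving out 1 library moved the edgeR features at an unadjusted p under 0.05 between 443 (without wild-type replicate 2) and 4181 (without wild-type replicate 1). The difference of effects gave 14 higher and 83 lower in DESeq2, 1 lower with no filter (AT4G38080) and 0 to 1 higher with a library left out (1 without paternal replicate 2, AT1G63540). The cause was not tested.

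With a replicate block, edgeR called 0 higher and 0 lower, with 491 features at an unadjusted p under 0.05, and NRPD1 measured -1.44. Labels do not say that the numbers pair the samples.

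The medians of nutrient transfer, cell division, photosynthesis, maternally expressed and seed coat genes changed sign with 1 library left out. List medians moved with the length offset in RNA-directed DNA methylation (-0.0224) and methylation maintenance (0.0813), without both doubted libraries in heat shock genes (0.77), and over libraries left out from 0.15 to 3.06 in heat shock genes and -0.63 to 1.42 in type I MADS-box genes. Of 76 genes followed, 72 never changed sign. AGL80 (-0.0236 in edgeR, -0.024 in DESeq2), HINKEL (0.0048 and 0.0045) and MYB3R4 (0.26 and 0.26) turned with the length offset, and HSP17.4 turned without paternal replicate 2 (-0.65, in a range of -0.65 to 4.25 over libraries left out) and without both libraries (-0.13 in edgeR, -0.0804 in DESeq2). Organelle shares kept their direction in 8 of 8 alternatives. Depth limits the weakest genes: AT1G66320 rests on 15 to 47 counts per wild-type library.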
